A study of Mus musculus with 237 samples.

Results

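Bone morphogenetic protein (BMP) signalling was followed through 10 genes in single cells of mouse embryonic skin. The ligands were Bmp4 and Bmp7, the receptors Bmpr1a and Bmpr2, the targets Id1, Id2, Id3 and Id4, and the inhibitory Smads Smad6 and Smad7. The genes were taken by symbol from a prepared list, and all 10 were found once each among the 55335 genes of the count table. The data came from 237 single skin cells at E14.5, collected from 3 wild-type (WT) and 7 p63 knockout embryos on a C57BL/6N background that were carried by ICR surrogate mothers. Knockout embryos had been edited with Cas9 at the zygote stage in the Trp63 exon for the DNA-binding domain, so alleles may differ between embryos and between cells. WT epidermis was freed with dispase and then dissociated with trypsin, whereas p63 knockout fetuses went straight into trypsin. All cells were sorted as PI-/CD45-/TER119-/CD140a-. The study describes a qPCR screen that kept WT cells with Krt5 and knockout cells with Krt8, without clear Pdgfra signal. The 237 cells still include 70 labelled as knockout fibroblasts, and 66 of the 79 mesenchymal cells below had Pdgfra at 10 CPM or more. Which cells passed the screen is not known here. Krt5 and Krt8 are also in the state rule below. Each library was 1 cell read along the full transcript without molecular identifiers, and totals ran from 2701500 to 19197138 counts with a median of 6938031.

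Only 16 columns of the table could be matched to labelled cells, all from the single WT embryo WT01. They were 11 cells of the basal layer (WT-KCB), 4 cells high in keratin 17 (WT-KCP) and 1 cell of the intermediate layer (WT-KCI). The other 221 cells entered only through states set by their own keratin and collagen levels, in CPM, which are counts scaled to the same total in every cell. Basal cells (54) had Krt5 and Krt14 at 300 CPM or more and Krt8 under 100 CPM. Simple cells (66) had Krt8 and Krt18 at 100 CPM or more with Krt5 and Krt14 under 100 CPM, and mesenchymal cells (79) had Col1a1 and Col3a1 at 100 CPM or more. A single cell met both the simple and the mesenchymal rule, and 39 cells met none. Genotype, embryo and tissue preparation of the 221 cells are not known here, so they cannot be told apart from state. By label, all 70 fibroblasts came from the single knockout embryo MU01. All 50 cells of the surface ectoderm remnant were knockout, and all 45 of the basal layer were WT. A further 28 knockout cells were labelled high in Krt5 and Krt14. The mesenchymal state may thus rest mainly on MU01, and simple against basal cells may largely be knockout against WT. How far the states follow the labels was not tested beyond the 16 matched cells. Cells are not replicates of an embryo, and no test between groups was possible. Values below are CPM of the summed counts of a group, with exact 95% Poisson intervals that cover counting error only, and the range over cells shows how far single cells lay from the sum.

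BMP ligands bind a complex of type I receptors such as BMPR1A and the type II receptor BMPR2. The active receptor phosphorylates SMAD1, SMAD5 and SMAD9, which enter the nucleus with SMAD4 and switch on targets such as the Id genes. ID proteins lack a DNA-binding region and hold E proteins away from DNA, and SMAD6 and SMAD7 feed back to block the receptor. In early ectoderm BMP favours epidermis over neural tissue, and later it acts in hair follicle spacing and in the dermis.

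Markers that the state rule did not use were checked first. The hemidesmosome collagen Col17a1 was at 10 CPM or more in 53 of 54 basal cells and in 1 of 66 simple cells (1.52%). The other basal keratinocyte markers did not part these states as sharply: 4 of the 5 on the list passed 10 CPM in the simple sum, and Trp63 itself was at 10 CPM or more in 49 of 66 simple and all 54 basal cells. The summed list ran from 5.04 through a median of 449 to 10629 CPM in simple cells and from 245 through 5307 to 15865 CPM in basal cells. The tight junction gene Cldn6 was at 10 CPM or more in 60 simple cells, 13 of 54 basal cells and none of the mesenchymal cells. Of the 5 simple epithelium markers 4 passed 10 CPM in the basal sum, and the summed list had medians of 779.9 CPM in basal and 3136 CPM in simple cells. All 6 fibroblast markers passed 10 CPM in the mesenchymal sum, and Pdgfra, which encodes the sorted-out antigen CD140a, was at 10 CPM or more in 66 of the 79 mesenchymal cells. Collagen counts were also present in the epithelial states: Col1a1 or Col3a1 was at 10 CPM or more in 37 of 66 simple cells and 4 of 54 basal cells. Muscle markers (Des, Myod1, Myog) together passed 100 CPM in 9 mesenchymal cells, whose summed level ran up to 3702 CPM with a median of 0.91 CPM over the state. The parts of these markers in the results were not tested beyond the values given without such cells. Median genes detected were 11735 in basal, 9705 in simple and 10759 in mesenchymal cells, at median totals of 7821784, 7277067 and 6093577 counts.

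By the sums of the 3 states, the members Id2 and Bmp4 were highest in the mesenchymal state, Id3 in the basal state and Smad6 in the simple state. Sequence before their RefSeq start sites is shown for that reason (GRCm38.p6, read 5′ to 3′ on the gene's own strand). Capitals mark GGCGCC, a GC-rich element of BMP-responsive Smad sites, and GTCT or its reverse complement AGAC, the short Smad box. Bmp4 is shown for chr14:46390670-46390919 and Smad6 for chr9:64022060-64022309, both on the minus strand and the 250 bases next to the start site. Id2 is shown for chr12:25096254-25096342 on the minus strand, which is the part of its 250 bases outside annotated exons. Around the Smad boxes of Id3, 30 bases are shown from chr4:136143643-136143672 and chr4:136143741-136143770 on the plus strand, since a longer GENCODE transcript covers its whole stretch.
Bmp4: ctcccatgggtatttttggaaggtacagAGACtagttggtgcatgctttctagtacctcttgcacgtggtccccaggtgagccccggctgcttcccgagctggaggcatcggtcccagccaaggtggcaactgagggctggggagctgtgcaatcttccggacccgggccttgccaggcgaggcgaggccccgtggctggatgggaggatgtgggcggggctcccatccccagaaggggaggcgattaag
Smad6: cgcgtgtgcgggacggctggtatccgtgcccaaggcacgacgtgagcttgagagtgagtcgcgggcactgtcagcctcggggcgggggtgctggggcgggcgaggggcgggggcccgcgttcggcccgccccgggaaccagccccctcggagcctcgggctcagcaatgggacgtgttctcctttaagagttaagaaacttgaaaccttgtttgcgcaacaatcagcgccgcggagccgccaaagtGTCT
Id2: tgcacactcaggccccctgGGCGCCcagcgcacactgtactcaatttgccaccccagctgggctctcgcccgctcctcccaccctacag
Id3, first: tgtcctcggcgtcAGACcagcctaaggaag
Id3, second: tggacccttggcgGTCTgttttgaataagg
Over the full 250 bases, Id2 held GGCGCC from position -231 and AGAC from -23, counted from the start site, and Id3 held AGAC from -166 and GTCT from -68 but no GGCGCC. Bmp4 held AGAC from -222 and Smad6 held GTCT from -4, and neither had GGCGCC. Over all 32851 promoter stretches of that length, 9.59% held GGCGCC, which is its own reverse complement, and 82.9% held GTCT on either strand. CCAAT, in 33.8% of stretches on either strand, was present 3 times before Id2 and was not found before Id3, Bmp4 or Smad6. TATAAA, in 12.4%, was found before none of these 4 genes. The letters describe the windows and were not tied to binding. RefSeq stretches matched 7 of the 10 members, and Id1, Bmp7 and Smad7 are named only.

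Bmp7 was the main ligand of the epithelial cells, and Bmp4 was concentrated in mesenchymal cells. Bmp7 (chr2:172868012-172940321) was at 357 CPM (355 to 359) in the basal sum, 246 CPM (244 to 247) in the simple sum and 60.4 CPM (59.7 to 61.1) in the mesenchymal sum. Over single basal cells it ran from 0.174 through a median of 331 to 936 CPM, and 98.1% of them were at 10 CPM or more (exact interval from 90.1%). Simple cells ran from 0 through 210.5 to 1522 CPM, and 81.8% passed 10 CPM (70.4 to 90.2%). In mesenchymal cells the median was 19.4 CPM and the highest 381 CPM, with 50.6% past 10 CPM (39.1 to 62.1%). The states overlapped in range, and 12 of 79 mesenchymal cells had no Bmp7 count.

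Bmp4 (chr14:46383520-46390669), a ligand known from limb, dermis and hair germ signalling, was at 6.24 CPM (6.01 to 6.47) in basal, 10.4 CPM (10.2 to 10.7) in simple and 37.2 CPM (36.7 to 37.8) in mesenchymal cells. It reached 10 CPM in 6 of 54 basal cells (11.1%, 4.19 to 22.6%), 3 of 66 simple cells (4.55%, 0.947 to 12.7%) and 32 of 79 mesenchymal cells (40.5%, 29.6 to 52.1%). Medians over cells were 0, 0 and 0.355 CPM, and the highest cells stood at 88.8, 586 and 586 CPM. The 586 CPM cell is the same in both lists: it met the simple and the mesenchymal rule, with Krt8 at 169 CPM, Col3a1 at 3542 CPM and no Bmp7 count, and it held 70.7% of the Bmp4 counts of the simple state. Genes on the opposite strand overlap the Bmp4 span, and its value was not whole in 10 cells, beside 68 cells with Bmp4 counts. Without the shared cell the log2 ratio of simple against basal cells moved from 0.66 to -0.82, so the direction of Bmp4 between the epithelial states rested on that cell.

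Per length of exon, Bmp7 was far above Bmp4 in the epithelial sums, and the ligands stood close in the mesenchymal sum. Bmp7 stood at 88.8 and Bmp4 at 2.77 CPM per kb in basal cells, at 61.1 and 4.64 in simple cells, and at 15 and 16.5 in mesenchymal cells. Bmp7 was thus 32 times Bmp4 in the basal state and 13.2 times in the simple state, whereas Bmp4 was 1.1 times Bmp7 in the mesenchymal sum. These values leaned on the cell shared by the simple and mesenchymal states: without it, Bmp7 was 44.9 times Bmp4 in simple cells (61.9 against 1.38 CPM per kb) and 1.19 times Bmp4 in mesenchymal cells (15.3 against 12.9 CPM per kb), so which ligand led there rested on that cell. Few mesenchymal cells carried both: 14 passed 10 CPM for both ligands, 18 for Bmp4 alone and 26 for Bmp7 alone. All 6 basal cells with Bmp4 at 10 CPM or more also had Bmp7.

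**Figure D1:**
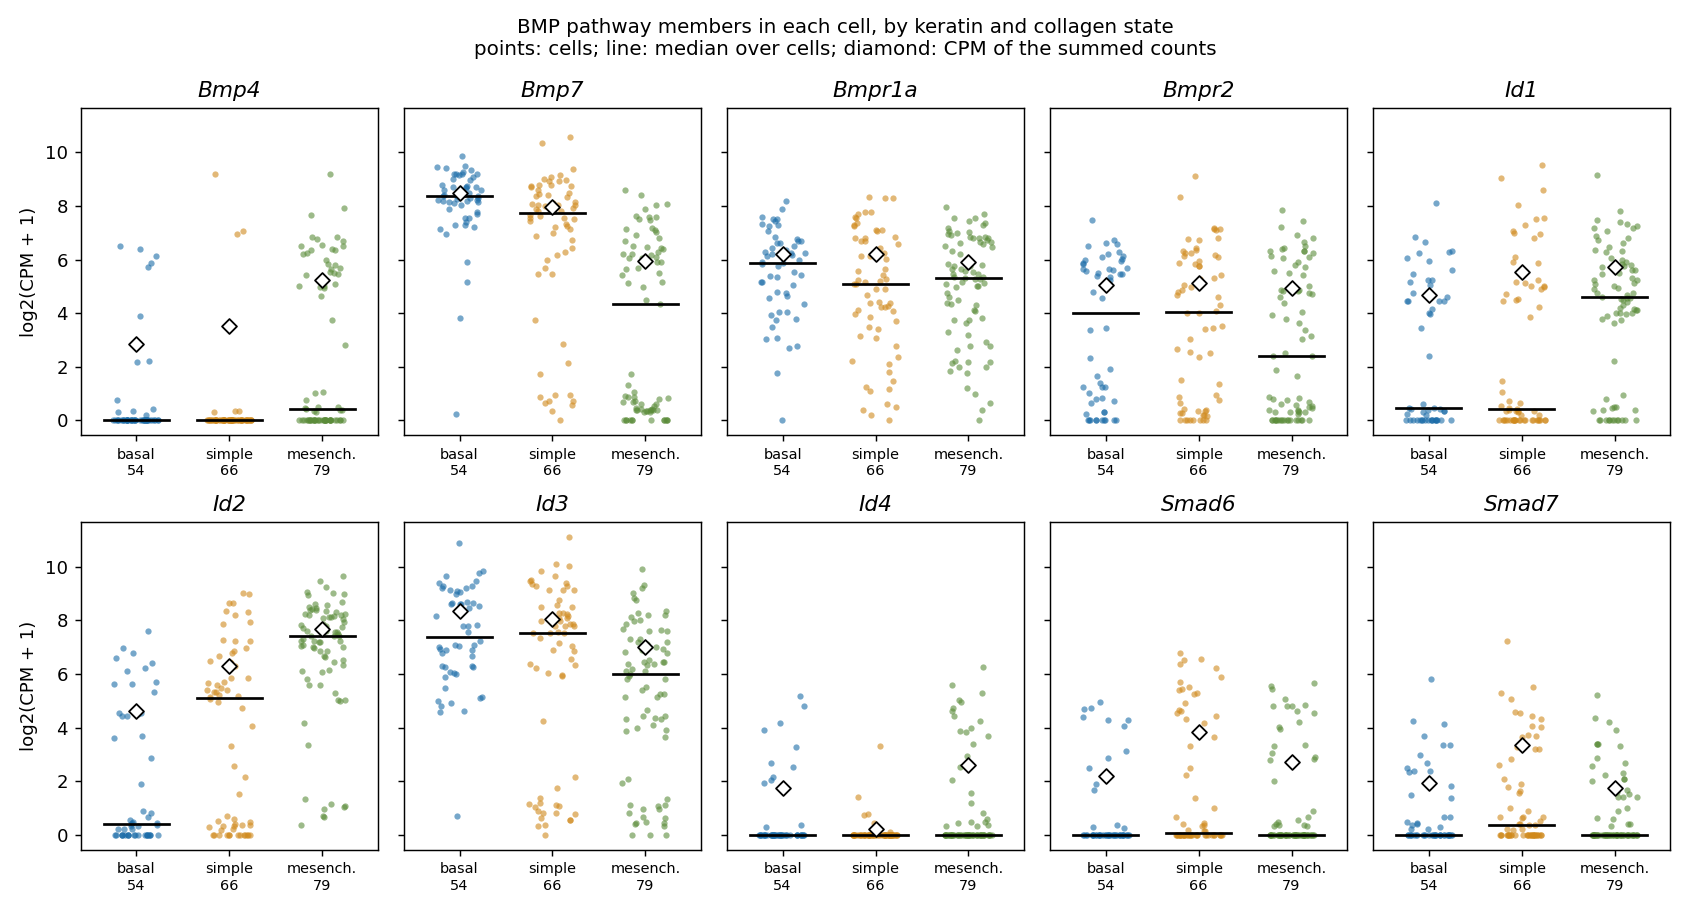
Level of each of the 10 genes in every cell as log2(CPM + 1), by state (54 basal, 66 simple and 79 mesenchymal cells). Lines are medians over cells and diamonds are the CPM of the summed counts. Bmp7 and Id3 were high in nearly all basal cells, Id2 in most mesenchymal cells, and Bmp4, Id4, Smad6 and Smad7 had medians near 0 in each state.

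The summed receptor levels were less than 2-fold apart between all 3 states, but by medians over cells Bmpr2 was lower in mesenchymal cells, at a log2 ratio of -1.72 against basal and -1.66 against simple cells. Bmpr1a (chr14:34410734-34503341), the type I receptor needed for hair follicle differentiation, was at 72.4 CPM (71.6 to 73.2) in basal, 72.3 CPM (71.6 to 73) in simple and 58.9 CPM (58.2 to 59.6) in mesenchymal cells. Its medians over cells were 58.1, 33.1 and 38.7 CPM, and its highest cells 288, 318 and 246 CPM. Bmpr2 (chr1:59763400-59879014), the type II receptor, was at 32.4 CPM (31.9 to 32.9), 33.5 CPM (33 to 34) and 29.4 CPM (28.9 to 29.9) in the same order. Its counts were patchier, with 27 of 54, 36 of 66 and 35 of 79 cells at 10 CPM or more and medians of 16.3, 15.6 and 4.26 CPM. Per length, Bmpr1a stood at 11.4, 11.4 and 9.27 CPM per kb and Bmpr2 at 1.8, 1.86 and 1.63 CPM per kb, so the type I receptor was the higher of the pair in every state. The value of Bmpr1a was not whole in 38 cells, beside 232 cells with counts, and an antisense gene overlaps its exons. Where these fractions came from was not tested, so its level carries that uncertainty.

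Each Id gene had its own order over the states. Id2 (chr12:25093799-25097140) was at 23.4 CPM (23 to 23.9) in basal, 77.5 CPM (76.8 to 78.3) in simple and 205 CPM (204 to 207) in mesenchymal cells. Single cells ran from 0 through a median of 0.334 to 193 CPM in the basal state, from 0 through 33 to 511 CPM in the simple state and from 0.28 through 172 to 806 CPM in the mesenchymal state. The share at 10 CPM or more was 33.3% (21.1 to 47.5%), 56.1% (43.3 to 68.3%) and 88.6% (79.5 to 94.7%). Mesenchymal cells were mostly high and basal cells mostly near 0, with overlap at the top of the basal range.

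Id3 (chr4:136143497-136145755) ran the other way. It was at 323 CPM (322 to 325) in basal, 261 CPM (260.0 to 263) in simple and 129 CPM (from 128) in mesenchymal cells. Basal cells ran from 0.636 through 169 to 1883 CPM, simple cells from 0 through 184 to 2212 CPM, and mesenchymal cells from 0 through 62.2 to 959 CPM. By the median over cells the simple state was the higher of the epithelial pair, while by the sum the basal state was, and a single basal cell held 15.4% of the basal counts. Nearly every basal cell had Id3 at 10 CPM or more (98.1%), against 72.7% of simple (60.4 to 83%) and 75.9% of mesenchymal cells (65 to 84.9%).

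Id1 (chr2:152736251-152737410) was split into cells with and cells without it in the epithelial states. Its sums were 24.3 CPM (23.8 to 24.7) in basal, 45.9 CPM (45.4 to 46.5) in simple and 51.8 CPM (51.2 to 52.5) in mesenchymal cells. The medians over cells were 0.375, 0.354 and 23.3 CPM and the highest cells 275, 732 and 565 CPM. A level of 10 CPM was reached in 42.6% of basal (29.2 to 56.8%), 40.9% of simple (29 to 53.7%) and 73.4% of mesenchymal cells (62.3 to 82.7%). The shares of basal and simple cells lay within each other's intervals, and the sums leaned on few cells, with 3 cells holding 43.8% of the basal and 41% of the simple counts.

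Id4 (chr13:48261228-48266026) was sparse, at 2.37 CPM in basal, 0.166 CPM in simple and 5.03 CPM in mesenchymal cells. It reached 10 CPM in 4 basal, 0 simple and 13 mesenchymal cells. The 0 of 66 simple cells allows a share of up to 5.44% by the exact interval. Antisense and lincRNA genes overlap its exons, and its value was not whole in 19 cells, beside 50 cells with counts.

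**Figure D2:**
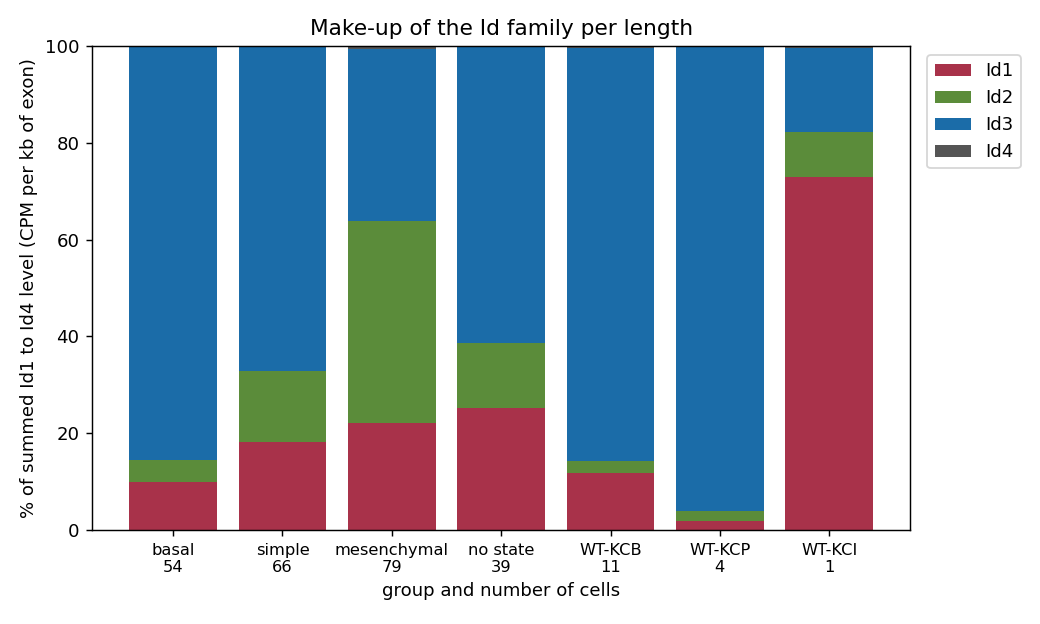
Percent of the summed Id1 to Id4 level, in CPM per kb of exon, that each gene made up in the 3 states, the cells in no state and the labelled WT cells, with the number of cells under each bar. Id3 made up 85.3% in basal cells and 35.6% in mesenchymal cells, where Id2 made up 41.7%.

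Added up per length, the Id family stood at 212 CPM per kb in basal, 217 in simple and 202 in mesenchymal cells, with a different make-up in each. Id3 made up 85.3% of the family in basal, 67.1% in simple and 35.6% in mesenchymal cells. Id2 made up 4.54%, 14.6% and 41.7%, and Id1 9.88%, 18.2% and 22.1%. Taking each cell by itself, Id3 was the highest Id gene per length in 49 of 54 basal cells and 51 of 66 simple cells, whereas Id2 was highest in 41 and Id3 in 24 of 79 mesenchymal cells. In the mesenchymal state 36 of 79 cells had 3 Id genes and 9 cells all 4 at 10 CPM or more, and in the basal state 6 of 54 cells had 3 and 1 cell all 4.

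Of the 3 states, simple cells had the highest sums of the inhibitory Smads, though the 39 cells in no state had Smad6 at 14.9 CPM. Smad6 (chr9:63953076-64022059), which blocks BMP receptors and SMAD1, was at 3.62 CPM (3.45 to 3.79) in basal, 13.3 CPM (13 to 13.6) in simple and 5.56 CPM (5.35 to 5.78) in mesenchymal cells. It passed 10 CPM in 7 of 54 (13%, 5.37 to 24.9%), 20 of 66 (30.3%, 19.6 to 42.9%) and 13 of 79 cells (16.5%, 9.06 to 26.5%), with highest cells at 30.0, 109 and 49.7 CPM. Smad7 (chr18:75367529-75395935), which acts on BMP and TGF-β receptors alike, was at 2.85 CPM (2.69 to 3), 9.14 CPM (8.89 to 9.39) and 2.39 CPM (2.25 to 2.53). Its 4 basal, 13 simple and 4 mesenchymal cells at 10 CPM or more were few, and 1 simple cell at 149.6 CPM held 55.4% of the simple counts. The simple cells without collagen had Smad7 at 2.43 CPM, against 15.9 CPM in the simple cells with it.

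The sums were then compared pairwise as log2 ratios of CPM + 1, and a gene was counted where it was at least 2-fold apart and at 10 CPM or more in 1 of the sums. Between simple and basal cells 8 members reached 10 CPM, of which 2 were higher and 0 lower in simple cells, beside 14.6% of 10762 genes higher and 11.3% lower. Id2 was higher by a log2 ratio of 1.68 and Smad6 by 1.63. By medians over cells Id2 was at 4.67 and Smad6 at 0.07, so Smad6 was 2-fold apart only in the sum. Id1 stood short of the fold, at 0.89, and was past it, at 1.30, without the basal cell highest in Id1, while Bmp7 (-0.54), Id3 (-0.31), Bmpr1a (-0.00) and Bmpr2 (0.05) were under it. Smad7 (1.40) and Id4 (-1.53) were past the fold but under 10 CPM in both sums. Without the 37 simple cells and 4 basal cells that had collagen counts, Id2 was at 1.65 and Smad6 at 1.65.

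Between mesenchymal and basal cells 7 members reached 10 CPM, and 3 were higher and 2 lower in mesenchymal cells, beside 16.8% of 10971 genes higher and 18.1% lower. Higher were Id2 (log2 ratio 3.08), Bmp4 (2.40) and Id1 (1.06), and lower were Bmp7 (-2.54) and Id3 (-1.32). The genes at 10 CPM or more in both sums had a median ratio of -0.26, so relative to them Id2 stood at 3.34, Bmp4 at 2.66, Id1 at 1.32, Bmp7 at -2.28 and Id3 at -1.06. By medians over cells Bmp4 was at 0.44, under 2-fold, and Bmpr2 at -1.72. The Id1 call needed 1 cell: without the mesenchymal cell highest in Id1, its ratio was 0.82. Leaving out the 9 cells with muscle markers gave 3.20 for Id2, 2.34 for Bmp4, 1.19 for Id1, -2.66 for Bmp7 and -1.30 for Id3.

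Between mesenchymal and simple cells, 2 members were higher and 3 lower of 8 at 10 CPM, beside 16.3% of 11237 genes higher and 22.2% lower. Higher in mesenchymal cells were Bmp4 (1.74) and Id2 (1.39), and lower were Bmp7 (-2.01), Smad6 (-1.13) and Id3 (-1.01). Relative to the median ratio of -0.21, Smad6 was at -0.92 and Id3 at -0.80, both under 2-fold, and without the simple cell highest in Id3 that gene was at -0.88. Bmp4 stood at 3.22 with the cell shared by both states left out of the simple sum, at 1.39 with it left out of the mesenchymal sum and at 2.87 with it left out of both. By medians over cells Bmp4 (0.44) and Smad6 (-0.07) were under 2-fold, while Id1 was at 4.16 and Bmpr2 at -1.66. These comparisons share their cells: basal cells stand in 2 of them, as do simple and mesenchymal cells, so they are not independent of one another.

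**Figure D3:**
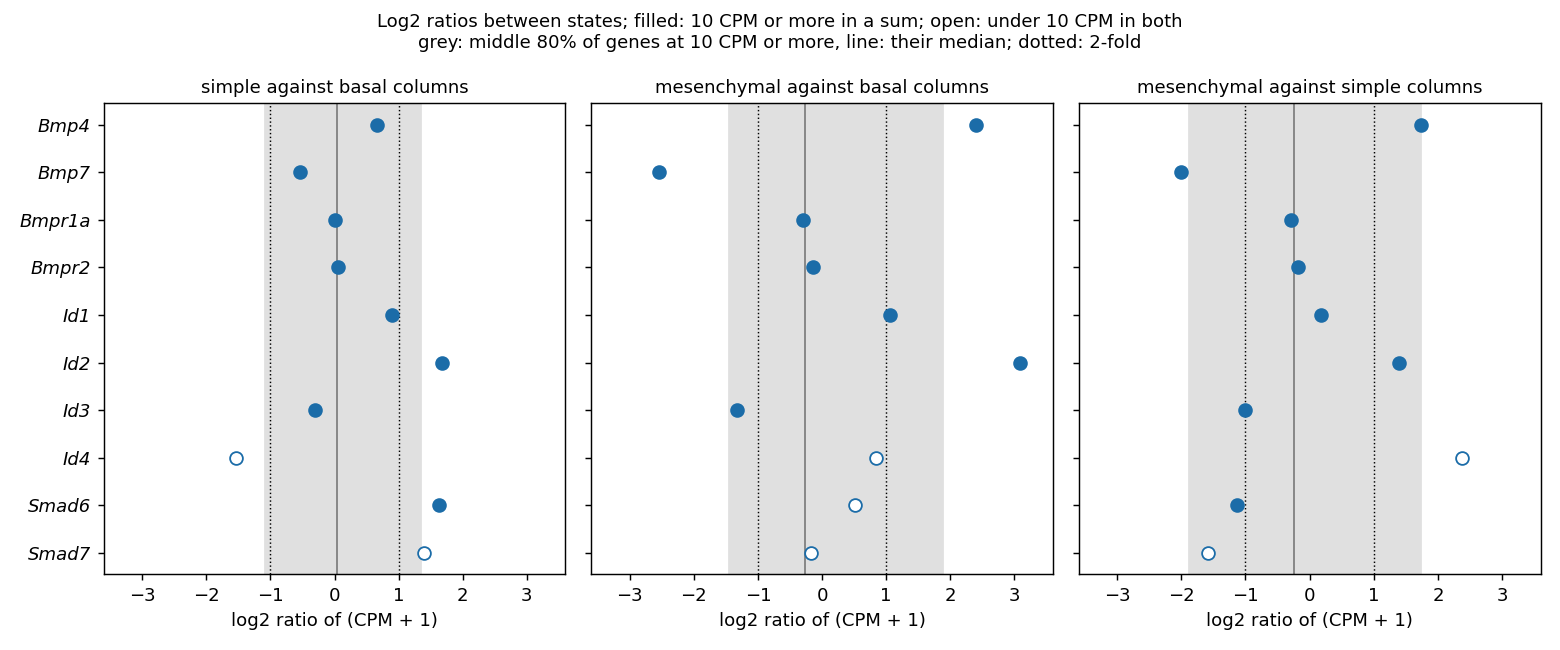
Log2 ratios of CPM + 1 between the summed states for the 10 members, with the middle 80% of genes at 10 CPM or more in grey and their median as a line. Filled points had 10 CPM or more in a sum. Bmpr1a and Bmpr2 stayed within 0.29 of 0 in each comparison, while Bmp4 and Id2 against Bmp7 and Id3 pulled apart in the comparisons with mesenchymal cells.

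Within a state the members varied with little relation to each other. As a description over cells of a shared table, Spearman's rho of Id1 and Id3 was 0.17 in basal (Pearson's r 0.19, 54 cells), 0.37 in simple (0.39, 66 cells) and 0.31 in mesenchymal cells (0.27, 79 cells). Id2 and Id3 had rho of -0.027 in basal, 0.2 in simple and 0.27 in mesenchymal cells. Bmp4 and Id3 had rho of -0.36 in mesenchymal cells (r -0.43), where the 32 cells with Bmp4 at 10 CPM or more included 18 with Id3 at 10 CPM or more, and the other 47 cells included 42, with a median of 108 CPM over these 47. Id1 did not follow this, with medians of 28.5 and 17.5 CPM in the same cells and rho of 0.091. Ranks of single members against library totals lay between -0.41 (Bmpr2 in simple cells) and 0.3 (Id2 in basal cells). Genes were also ranked by rho with Id3 and with Id1 over the 54 basal cells, among 7726 genes with a mean of 20 CPM or more. How high the top of so many values would lie by chance was not tested. The 5 genes most like Id3 were Usp48 (0.53), Dusp6 (0.51), Mfap2 (0.5), Eef2kmt (0.49) and Cadm1 (0.48). For Id1 they were Tpm4 (0.48), Tgfbr1 (0.45), Plagl1 (0.45), Plp2 (0.45) and Kdf1 (0.44). No member was among them, but Bmp4, Id4, Smad6 and Smad7 could not be. Their basal sums of 6.24, 2.37, 3.62 and 2.85 CPM were too low for this filter.

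The labelled WT cells all came from embryo WT01, and the 11 WT-KCB and 4 WT-KCP cells all met the basal rule. In the WT-KCP cells, which the study calls periderm, Id3 read 672, 408, 374 and 619 CPM. These cells had 1827 to 4373 CPM of the listed markers Krt17, Krt6a, Sox9 and Grhl3, summed. Krt17 encodes the keratin in their own label, so this sum is not a check of the periderm name. In the WT-KCB cells, with 6.95 to 613 CPM of those markers, Id3 had a lowest value of 29.4, a median of 99.9 and a highest value of 876 CPM. Thus 9 of the 11 basal-layer cells lay below every WT-KCP cell, and the 2 others, at 876 and 800.2 CPM, lay above them all.

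Bmp7 read 576, 511, 495 and 577 CPM in the WT-KCP cells and 141, 299 and 564 CPM (lowest, median, highest) in WT-KCB. Again 9 of 11 basal-layer cells were below all WT-KCP cells, though the sums of 536 CPM (527 to 544) and 325 CPM (321 to 329) were less than 2-fold apart, at a log2 ratio of 0.72. Bmpr2 read 43.3, 43.5, 44.1 and 39.4 CPM in WT-KCP, while WT-KCB ran from 0 to 178 CPM with a median of 47.8 CPM. Bmpr1a read 152, 32.5, 53.2 and 102 CPM in WT-KCP and between 7.12 and 183 CPM in WT-KCB.

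Id1 was present in 1 WT-KCP cell at 21.1 CPM and read 0.292, 0 and 0 CPM in the others. In WT-KCB it passed 10 CPM in 5 of 11 cells, with values of 21.2 to 76.7 CPM in these, and 5 cells had none. Id2 read 0, 12, 0 and 50.4 CPM in WT-KCP and passed 10 CPM in 3 of 11 WT-KCB cells. Bmp4 was at 13.9 CPM in 1 WT-KCP cell and 0 in the 3 others, and 1 WT-KCB cell at 82.6 CPM held 95.7% of that group's Bmp4 counts. Of 6 members at 10 CPM, Id3 was higher (1.19) and Id1 lower (-1.45) in the WT-KCP sum, beside 15.8% of 10601 genes higher and 15.6% lower. With each cell left out in turn, Id3 stayed between 1.03 and 1.68 and Id1 between -4.24 and -1.01, while Id2 ran from -1.04 without WT01CELL015 to 1.32 without WT01CELL014. By medians over cells Id3 was at 2.35 and Id1 at -0.11, so Id1 was 2-fold apart only in the sum. Summed hair placode markers also differed, from 546 through a median of 828 to 979 CPM in WT-KCP and from 103 through 229 to 1068 CPM in WT-KCB. Most of this was Sostdc1, itself a BMP antagonist (746 and 293 CPM of the sums). Of the 5 listed markers, Sostdc1 included, 2 passed 10 CPM in the WT-KCP sum and 3 in the WT-KCB sum. Dkk4 and Lhx2 were at 0 in all 4 WT-KCP cells. The part of these markers in the results was not tested. No member had all WT-KCP cells above or all below every WT-KCB cell. The share of all genes that part these cells fully, or nearly so, is not given here. The overlap thus describes the members and does not set them apart from other genes.

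The single WT-KCI cell met no state rule and had 29639 CPM of the summed suprabasal markers Krt1, Krt10, Lor and Sbsn. Id1 was at 120.3 CPM (113 to 128), above the highest of the 15 other labelled cells, and Id3 at 43.9 CPM (39.5 to 48.7). Bmp7 was at 99.3 CPM (92.7 to 106), below all of the others. Id1 made up 73% of its Id family per length. Smad6 and Smad7 had no count, which allows up to 0.364 CPM for 3 counts, and 1 cell carries no spread.

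**Figure D4:**
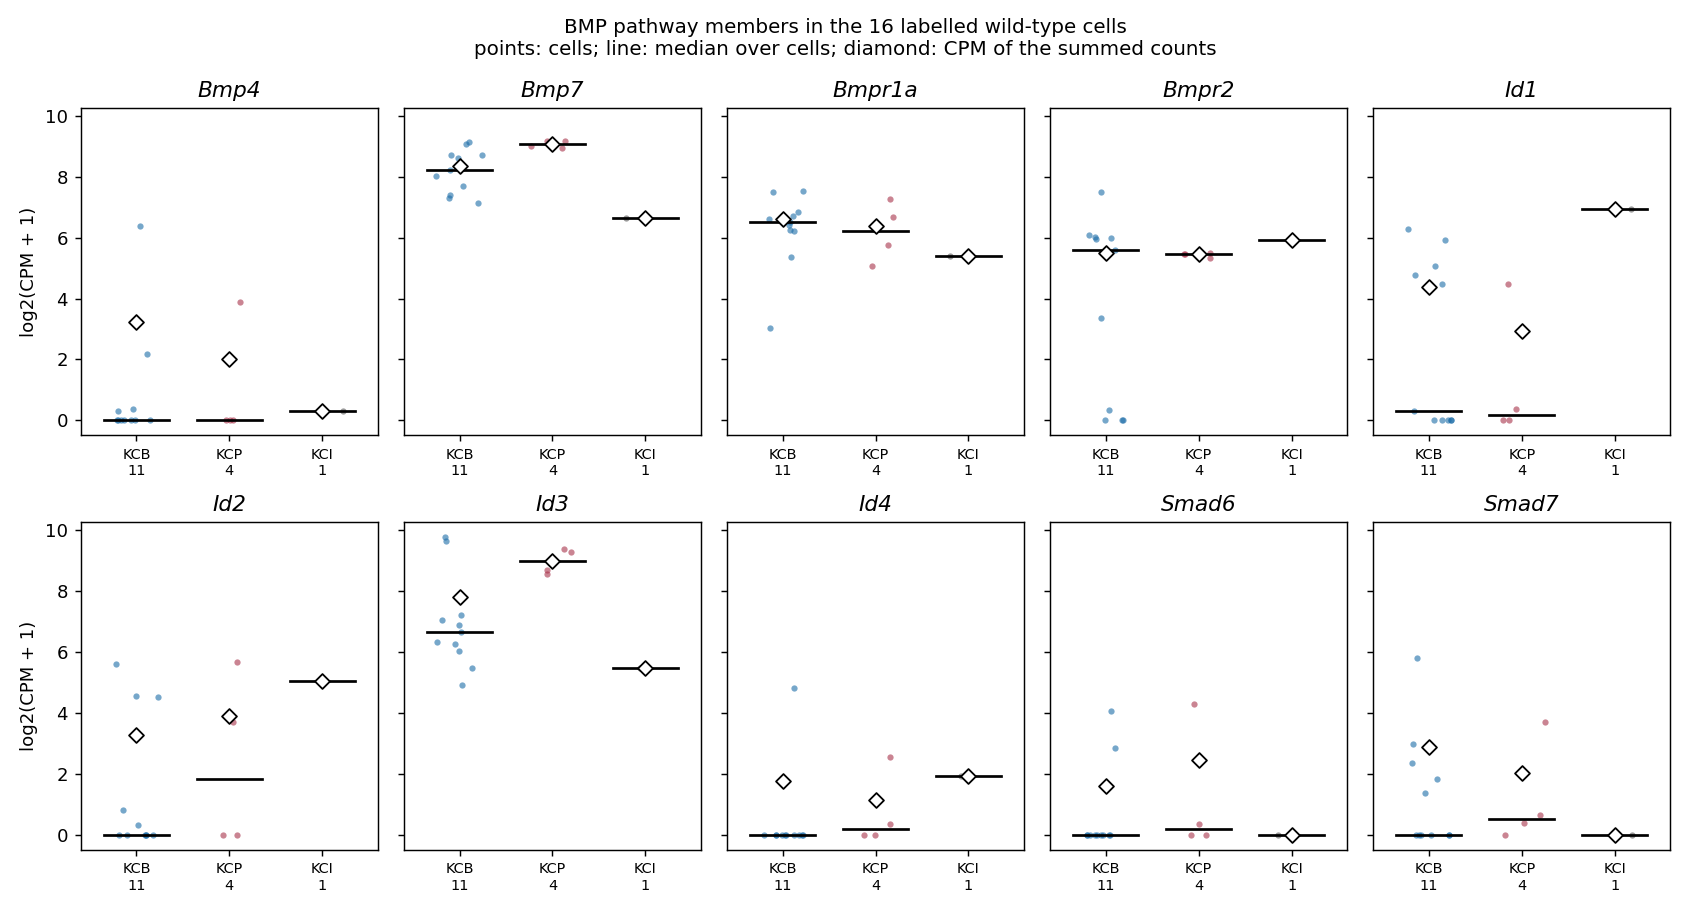
Level of the 10 genes as log2(CPM + 1) in the 11 WT-KCB, 4 WT-KCP and 1 WT-KCI cells of embryo WT01. Lines are medians over cells and diamonds the CPM of the summed counts. The WT-KCP cells sat together for Bmp7, Bmpr2 and Id3, and the WT-KCI cell was the highest for Id1.

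The rest of the pathway was read from a list of 56 genes, of which 44 reached 10 CPM in at least 1 state. In simple against basal cells 7 of the 38 at 10 CPM were higher and 5 lower, beside 14.6% and 11.3% of all genes at 10 CPM. The highest were the homeobox target Msx1 (44.1 against 0.0303 CPM, log2 ratio 5.45), the T-box gene Tbx3 (28.9 against 0.013 CPM, 4.88) and the ligand Bmp3 (13.1 against 0.489 CPM, 3.25). Msx1 was carried by 6 of 66 simple cells, up to 2349 CPM, Bmp3 by 6 and Tbx3 by 17. A single simple cell held 64.8% of the Msx1 counts and a single simple cell 55.4% of the Bmp3 counts. The lowest were the activin and BMP antagonist Fst (3.95 against 52.8 CPM, -3.44), the type I receptor Bmpr1b (8.97 against 63 CPM, -2.68) and the type I receptor Acvrl1 (1.5 against 10.5 CPM, -2.20). Bmpr1b passed 10 CPM in 37 of 54 basal cells and 10 of 66 simple cells, while Bmpr1a was level between them. The transcriptional co-repressor Skil was at 22.2 CPM in basal and 114 CPM in simple cells, and Tfap2c, an ectodermal transcription factor, at 83.9 and 249 CPM.

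In mesenchymal cells the antagonist Chrd was at 31.3 CPM, and it had no count in basal or simple cells, where 3 counts would be 0.00649 and 0.00529 CPM. The ligand Gdf10 was at 30.2 CPM, with no count in basal and 2 counts in simple cells, and the BMP-binding protein gene Bmper was at 25.5 CPM, with no count in basal cells. Bmper reached 10 CPM in 9 of 79 cells, Chrd in 35 and Gdf10 in 29. A single cell at 1419 CPM held 61.3% of the mesenchymal Bmper counts, so its level rested largely on that cell. The highest cells held 9.69% for Chrd and 25.3% for Gdf10. The co-receptor Eng was at 34.2 CPM in mesenchymal and 0.169 CPM in simple cells (4.91). Lowest in mesenchymal cells were Gata3 (0.873 CPM against 334 in basal and 419.9 in simple cells), Tfap2c (1.95 CPM) and Dlx3 (0.00835 CPM), all epidermal transcription factors. Of the list, 16 of 41 genes at 10 CPM were higher and 11 lower against basal cells, and 14 of 43 higher and 13 lower against simple cells. All genes at 10 CPM had 16.8% higher and 18.1% lower in the former comparison and 16.3% and 22.2% in the latter. Bmp1, whose product cleaves chordin, was at 215 CPM in mesenchymal, 30.6 in simple and 21.5 in basal cells.

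The signal carriers between receptor and target are the Smads. In the sums, none of the 3 at 10 CPM (Smad1, Smad5 and Smad4) was 2-fold apart in any comparison of states. Most genes at 10 CPM were not either. Against basal cells 14.6% were higher and 11.3% lower in simple cells, and 16.8% and 18.1% in mesenchymal cells. In mesenchymal against simple cells the shares were 16.3% and 22.2%, so the 3 Smads do not stand out. Medians over basal, simple and mesenchymal cells lay further apart for Smad4, at 12, 27.3 and 2.49 CPM, and for Smad5, at 85.9, 40.5 and 59.5 CPM. Those of Smad1 were 131, 114 and 144 CPM. Smad1 was at 133, 145 and 181 CPM in basal, simple and mesenchymal cells and Smad5 at 94.1, 62 and 74 CPM, whereas Smad9 had 0, 72 and 4 counts in all. Of the E proteins that ID proteins bind, Tcf3 was at 353, 315 and 351 CPM, while Tcf4 was at 157, 70.8 and 812 CPM and Tcf12 at 149.9, 128 and 448 CPM, both highest in mesenchymal cells.

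Bmp2 was a further ligand with higher epithelial sums, at 108 CPM in basal, 96.2 in simple and 13.8 CPM in mesenchymal cells. Its medians over cells were only 1.65, 0.321 and 0 CPM, and a single simple cell held 32.9% of the simple counts. It reached 10 CPM in 25 of 54 basal, 22 of 66 simple and 12 of 79 mesenchymal cells. Bmp2 was the lowest gene of the list in WT-KCP against WT-KCB, at 3.9 against 170.1 CPM (-5.12), with 1 of 4 and 7 of 11 cells at 10 CPM or more. Bambi, a pseudoreceptor that dampens BMP and TGF-β signals, had no count in WT-KCP cells and 16.4 CPM in WT-KCB cells, where 4 of 11 cells carried it at 10 CPM or more. Acvrl1 followed (0.0685 against 13.9 CPM, -3.80). Highest in WT-KCP were the co-receptor Tgfbr3 (73.3 against 12.1 CPM, 2.51), Tob2 (97.9 against 18.7 CPM, 2.33) and Skil (51.4 against 10.7 CPM, 2.16). In all, 7 of 33 list genes at 10 CPM were higher and 6 lower, beside 15.8% and 15.6% of all genes at 10 CPM.

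**Figure D5:**
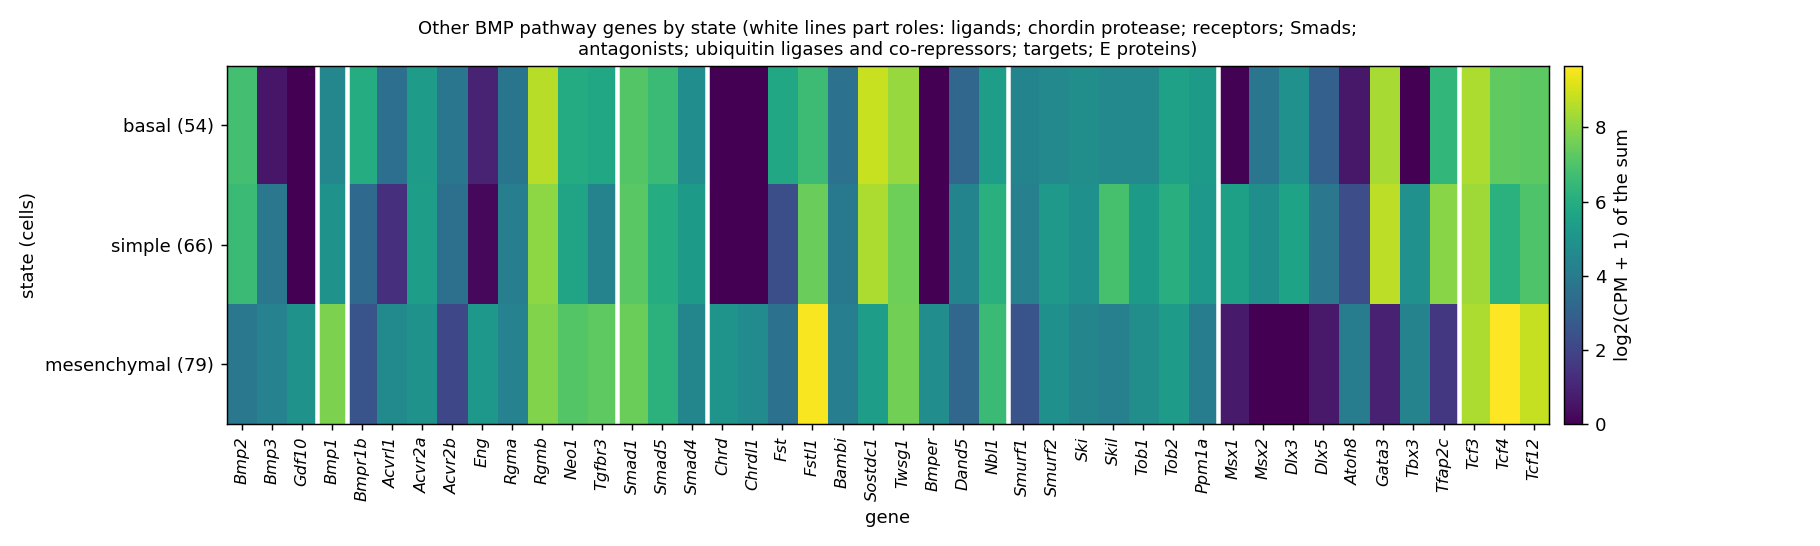
Level of the 44 further pathway genes that reached 10 CPM in a state, as log2(CPM + 1) of the summed counts, in rows of basal, simple and mesenchymal cells. White lines separate roles from ligands on the left to E proteins on the right. Chrd and Gdf10 were near 0 outside mesenchymal cells, and Gata3, Dlx3 and Tfap2c near 0 to 1.95 CPM within them.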

How the data were processed

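Expected counts per gene were deposited for 237 cells in 1 table. The authors made them from paired reads trimmed with Trimmomatic, aligned to mm10 with HISAT2 and counted with featureCounts on Ensembl release 97, and 23.2% of the values above 0 are not whole. The strand and multiple-mapping settings of counting are not given in the sources used here. Counts were rounded, divided by the column total and scaled to CPM. Symbols came from GENCODE M21 (GRCm38), which named 55154 of 55335 genes, and exon lengths are the union of its exons. Only 16 columns could be matched to labels, so 221 entered without one. Ratios used a pseudocount of 1 CPM, and counted genes had 10 CPM or more in 1 of the sums. Named list genes are the 3 highest and 3 lowest ratios of each comparison, and others were chosen after their values were seen. The state comparisons rest on sums of cells, and no statistical test was run. Members, states and lists were chosen with earlier results of these data known. The ratio of sums was tested on simulated data. Intervals were computed with scipy 1.17.1 under Python 3.11.15, sums with pandas 2.3.3 and numpy 2.4.6, and plots with matplotlib 3.10.9. Alternatives covered fractional counts, medians of cells, centring, totals, pseudocount, filter, thresholds, left-out cells and thinning to 1000000 counts. Each library came from a sorted single cell, but doublets were not called, so cells with both keratin and collagen counts were not checked for them.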

Additional observations from a re-analysis of the deposited data

Results flagged for a closer look

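In the 4 WT-KCP cells, 6 of the 10 members had a cell whose gap to the nearest other cell was over 0.829 of the range. For values with a normal distribution, chance alone flags about 1 in 20 groups, a rate that counts with many zeros need not follow. The rule reads a single cell with counts among cells near 0 in the same way. The share of all genes flagged is not given here, so this count does not set the members apart. Bmp4 stood at 13.9 CPM in WT01CELL015 with 0 in the other cells. Id1 stood at 21.1 CPM in WT01CELL012, and the next cell was at 0.292 CPM. Cell WT01CELL011 was the highest for Id4 (4.85 CPM), Smad6 (18.5 CPM) and Smad7 (12 CPM), with the next cells at 0.292, 0.292 and 0.583 CPM. Bmpr2 was lowest in WT01CELL015, at 39.4 CPM, where the other cells lay between 43.3 and 44.1 CPM.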

How the results depend on the processing

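Across 560 recomputed log2 ratios of single members, 0 of those counted as at least 2-fold apart turned direction. The number of members counted in simple against basal cells (2) was 1 with medians of cells and 4 with no filter on low values. In mesenchymal against simple cells it was 3 rather than 5 when ratios were centred on their median, 7 with no filter, and 4 with totals without the top genes, without cells of 2 states or with collagen, without muscle marker cells or without the highest simple cell. In WT-KCP against WT-KCB medians of cells gave 1 rather than 2, and dropping single cells gave 2 to 3. Mesenchymal against basal cells gave 5, or 4 without the cell highest in the gene among mesenchymal cells. An equal count can hide other genes: medians of cells gave 5 in both mesenchymal comparisons, but with Bmpr2 in place of Bmp4 against basal cells (-1.72 and 0.44), and with Id1 (4.16) and Bmpr2 (-1.66) in place of Bmp4 (0.44) and Smad6 (-0.07) against simple cells. The settings that left out the highest cell, the cell of 2 states alone or the cells with muscle markers were chosen after seeing the data. Of the 30 pairs of member and state, 14 had shares of 50% or more at 10 CPM, with no share moving by more than 3.03 percentage points after thinning to 1000000 counts. At 1 CPM instead of 10, 15 pairs passed 50% and single shares moved by up to 24.1 points, as for Smad7 in mesenchymal cells (5.06 to 29.1%).

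No paired analysis was possible because the labelled cells all came from 1 embryo and the results come from no test. Depth was ample for abundant members, and a count of 0 in a single cell does not show that a sparse gene was absent. Embryo, genotype and preparation cannot be told apart from state.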

Other observations

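The 39 cells in no state had the Id family at 186 CPM per kb, with Id3 at 61.1%, Id1 at 25.2% and Id2 at 13.5%. Id1 was the highest Id gene per length in 12 of them. Smad6 was at 14.9 CPM in their sum (14.4 to 15.3) and reached 10 CPM in 12 of 39 cells (30.8%, 17 to 47.6%). Bmp7 was at 164 CPM (162 to 165), and Bmp4 was at 0.335 CPM, with 76.2% of its counts in 1 cell. Summed melanocyte markers reached 11314 CPM and summed muscle markers 8322 CPM in single cells of these 39, so they are a mixed set.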
